A study of Schizosaccharomyces pombe with 6 samples.

Results

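The long genes of a stretch of fission yeast (Schizosaccharomyces pombe) chromosome II are described here, by how newly made histone H3 was spread along them from the 5′ to the 3′ end. They are the protein-coding genes of 3 kb or more in the ASM294v3 annotation that lie wholly in the tiled stretch and outside an interval around the centromere. They number 128 of 873 protein-coding genes there, and the choice used length and position only, not the array values. Of the 873 genes, 529 were at least 1.5 kb long and entered the fits, among them 401 genes of 1.5 to 3 kb that are called the shorter genes below. Every gene was cut into 10 equal parts, part 1 at the 5′ end and part 10 at the 3′ end, and the probes whose centres lay in a part were averaged.

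Nucleosome turnover was measured on 6 tiling arrays, 1 each of the strains amo1D, rix1E414K and pob3D and 3 of wild type (WT). The strain amo1D lacks amo1, which encodes a protein of the nuclear rim, rix1E414K carries a point mutation in a subunit of the ribosome biogenesis complex called the rixosome, and pob3D lacks a subunit of the histone chaperone FACT. All strains, WT included, carried the plasmid pINV1-H3.2-FLAG, from which FLAG-tagged H3 is made once sucrose replaces glucose. Replication was stopped by 4 h in 15 mM hydroxyurea in medium with 8% glucose, and the cells then spent 2 h in 4% sucrose, still with the drug, before fixation. DNA pulled down through the FLAG tag carried Cy5 and whole-cell extract DNA carried Cy3, so a value is log2 of Cy5 over Cy3, centred on the median probe of its array. A value above 0 means more new H3 relative to input DNA than at the median probe, and total H3 was not measured. The DNA fragments were 400 to 600 bases long, so the first and last parts of a gene can carry signal from DNA beyond it. This limit weighs more on the shorter genes, whose parts are smaller. Each mutant had 1 array. WT replicate 1 lay on the slide of amo1D, WT replicate 2 on that of rix1E414K and WT replicate 3 on that of pob3D. Separate cultures are not stated for the WT arrays, so the SDs and p-values below cover the spread of these 3 arrays, in part or wholly technical.

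Outside replication, old histones leave the DNA and new ones are put in mainly where the DNA is opened, at promoters and along genes that are being read. RNA polymerase II loosens the nucleosomes it passes, and FACT and other chaperones put the same histones back behind it, so that genes can be transcribed with little entry of new H3. In budding yeast, turnover of H3 is known to be fast at promoters and slow over most coding sequence, and long genes show the space between both ends most clearly.

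The arrays were alike in brightness, with median processed intensities of 1018 to 1150 in Cy5 and 993.2 to 1145 in Cy3, and their log2 ratios had an SD over probes of 0.45 in amo1D, 0.47 in rix1E414K, 0.37 in pob3D and 0.41 to 0.49 in WT. As a check of the labels, the mean log2 Cy3 signal over the 31 probes of amo1, relative to the array median, was -9.41 in amo1D against -0.91 to -0.72 on the other 5 arrays. The genes rix1 and pob3 have no probes, so those genotypes were not checked.

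The 128 long genes spanned 3002 to 11069 bases, with a median of 3706.5. They held 60 to 221 probes each (median 74) and at least 6 in every part. Of them 79 were 3 to 4 kb long, 26 were 4 to 5 kb and 23 were 5 kb or more. The longest was tra1, which encodes a subunit of the SAGA coactivator complex, followed by sip1 (8494 bases) and lvs1 (8138 bases). Length rested on untranslated sequence in many of them: 56 had a span from start to stop codon of 3 kb or more, 72 had a shorter one, and in 34 it was under 2 kb. The annotated 3′ UTR was longer than 1 kb in 42 of them and reached 5911 bases. Another protein-coding gene overlapped 72 of the 128, in 46 cases by 500 bases or more, and 11 pairs of long genes overlapped each other, so neighbours can share probes. The 2 genes just inside the limit were res1 (3002 bases) and chs2 (3008 bases), with WT means over the gene body of -0.09 and -0.06. Just outside were str1 (2992 bases, 0.66) and mts4 (2982 bases, -0.18).

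The bases upstream of 4 of these genes are shown because these genes had the highest (aly2, scr1) and the lowest (sec31, pmt3) level of new H3 at the start relative to the middle, among genes with an annotated 5′ UTR. They are the intergenic bases, at most 250, before the annotated transcript start in the RefSeq genome ASM294v3, written 5′ to 3′ on the gene's own strand. Capitals mark matches to the motifs searched: TATAAA and AAAAAAA, on either strand. The gene trt1, whose start was also high, has no annotated 5′ UTR, as do 8 other members, so its upstream bases are not shown.
aly2 (chrII:2971079-2971328, + strand): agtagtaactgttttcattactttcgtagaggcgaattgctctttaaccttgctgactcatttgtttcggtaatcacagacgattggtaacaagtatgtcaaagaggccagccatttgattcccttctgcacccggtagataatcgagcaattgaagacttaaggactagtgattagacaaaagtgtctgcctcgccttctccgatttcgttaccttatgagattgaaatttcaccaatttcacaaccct
scr1 (chrII:1751843-1752092, + strand): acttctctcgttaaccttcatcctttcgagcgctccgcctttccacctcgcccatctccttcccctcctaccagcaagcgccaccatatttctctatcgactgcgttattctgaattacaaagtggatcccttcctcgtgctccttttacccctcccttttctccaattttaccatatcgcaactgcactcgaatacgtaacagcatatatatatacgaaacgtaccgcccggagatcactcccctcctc
sec31 (chrII:1399638-1399787, − strand): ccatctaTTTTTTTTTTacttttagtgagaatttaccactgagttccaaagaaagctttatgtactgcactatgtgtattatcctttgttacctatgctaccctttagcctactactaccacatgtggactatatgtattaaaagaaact
pmt3 (chrII:2506674-2506844, + strand): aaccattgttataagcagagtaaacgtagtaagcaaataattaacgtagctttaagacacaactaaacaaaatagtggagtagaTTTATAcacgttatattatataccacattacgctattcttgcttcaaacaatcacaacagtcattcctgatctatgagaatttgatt

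The upstream bases of the high pair were richer in G and C, 40.8% in aly2 and 49.2% in scr1, than those of the low pair, 32.7% in sec31 and 30.4% in pmt3. The high pair also stood far from its upstream neighbours, with 2376 free bases before aly2 and 4276 before scr1, while sec31 had 150 and pmt3 had 171. The contrast in distance between the 4 genes was not seen across the calls described further on. The median free distance upstream was 490 bases in the 28 long genes with a high start and 497 in the 25 with a low start. It was 479 in those not called. The GC content of the upstream bases was not compared across these calls. Neither motif occurred in aly2 or scr1, sec31 held 1 run of T and pmt3 held TATAAA on the reverse strand. Over 250 bases upstream of every gene fitted, TATAAA occurred on either strand in 47 of the 128 long genes (36.7%) and in 185 of the 401 shorter genes (46.1%). The run AAAAAAA occurred in 37 long genes (28.9%) and 128 shorter genes (31.9%), and the HomolD box CAGTCACA in 1 long gene (0.781%) against 3 of all 529 genes (0.567%). Windows of neighbouring genes can overlap, and a match describes letters only.

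Averaged over all 128 long genes, the profile was close to flat with the processing used throughout. The WT mean over 3 arrays was -0.006 in part 1, 0.030 in part 2, -0.013 in part 6, 0.053 in part 9 and 0.024 in part 10, and the SD between WT arrays was 0.017 to 0.068 in the 10 parts. The highest and lowest of the 10 parts of the mean profile were 0.126 apart in amo1D, 0.110 in rix1E414K, 0.056 in pob3D and 0.047 to 0.147 in the WT arrays. Single genes were far from flat: the median gene covered a range between parts of 0.52 in amo1D, 0.41 in rix1E414K, 0.45 in pob3D and 0.39 to 0.48 in the WT arrays. With this processing the shapes cancelled in the mean. Under the alternatives loess and normexp, the start and the end of the WT mean profile stood above its middle, by the values in the last section.

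The start minus the middle (part 1 minus the mean of parts 5 and 6), averaged over the long genes, was 0.064 in amo1D, -0.073 in rix1E414K and -0.033 in pob3D, against -0.066, 0.084 and 0.009 in WT replicates 1 to 3. The sign differed between arrays of one genotype, so no common rise or fall at the start could be read with this processing. The end minus the middle was 0.123 in amo1D, -0.052 in rix1E414K and -0.023 in pob3D, against -0.008, 0.102 and 0.024 in WT. The WT mean of 0.039 ± 0.056 (SD, n = 3) was likewise smaller than its spread. The start minus the end was below 0 on all 6 arrays, at -0.059, -0.022 and -0.010 in amo1D, rix1E414K and pob3D and at -0.058, -0.017 and -0.015 in the WT arrays. This was not particular to the long genes. The shorter genes were also below 0 on all 6 arrays, and long minus shorter was -0.0038 ± 0.0196 in WT (SD, n = 3). In the 72 long genes with a coding span under 3 kb the WT mean was 0.0060 ± 0.0267 (SD, n = 3).

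**Figure D1:**
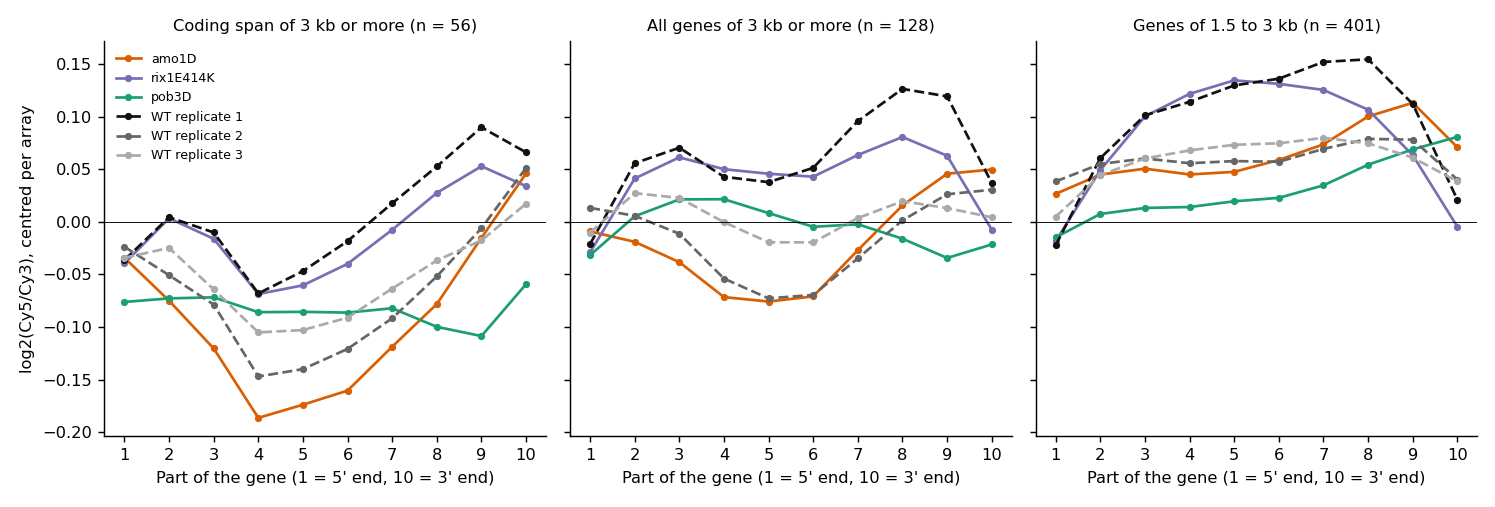
Mean log2 Cy5 over Cy3, centred per array, in 10 parts from the 5′ to the 3′ end, for the 56 long genes with a coding span of 3 kb or more, all 128 long genes and the 401 shorter genes, with a line for each of the 6 arrays. The long genes as a whole lay close to 0 in all parts, those with a long coding span dipped around part 4 on every array except pob3D, which stayed nearly level to part 9, and the shorter genes fell off towards both ends on most arrays.

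The long genes differed from the shorter genes in their middle. In parts 5 and 6 the long genes averaged -0.073 in amo1D, 0.044 in rix1E414K and 0.002 in pob3D, against 0.045, -0.071 and -0.019 in the WT arrays. The shorter genes averaged 0.053, 0.133 and 0.021 in the mutants and 0.133, 0.057 and 0.074 in WT. The difference, long minus shorter, was -0.126 in amo1D, -0.088 in rix1E414K, -0.019 in pob3D and -0.088, -0.128 and -0.093 in WT, below 0 on 6 of 6 arrays, and its WT mean of -0.103 ± 0.022 (SD, n = 3) was several times the spread. In pob3D it lay nearest to 0 of the 6 arrays.

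At the start the shorter genes were low relative to their own middle on all 6 arrays, where the long genes varied in sign. The start minus middle of the shorter genes was -0.027 in amo1D, -0.151 in rix1E414K and -0.036 in pob3D, against -0.155, -0.019 and -0.069 in WT. Long minus shorter in this measure was 0.091 in amo1D, 0.078 in rix1E414K and 0.0025 in pob3D, against 0.090 ± 0.013 in WT (SD, n = 3). The end minus middle of the shorter genes was 0.018 in amo1D, -0.137 in rix1E414K and 0.060 in pob3D, against -0.112, -0.017 and -0.036 in WT. Long minus shorter in it was 0.105 in amo1D, 0.086 in rix1E414K and -0.083 in pob3D, against 0.104, 0.119 and 0.059 in WT. The pob3D array alone was below 0, lower than the WT mean by 0.177, and under the processing alternatives tried that difference lay between -0.251 and -0.139. With 1 array this has no replicate check.

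Among the long genes the shape differed with the coding span. In the 56 genes with a coding span of 3 kb or more, the middle averaged -0.167 in amo1D, -0.050 in rix1E414K and -0.086 in pob3D, against -0.033, -0.130 and -0.097 in WT. Their end minus middle was 0.213, 0.084 and 0.027 in amo1D, rix1E414K and pob3D and 0.099, 0.182 and 0.114 in WT, above 0 on 6 of 6 arrays, with a WT mean of 0.131 ± 0.044 (SD, n = 3). The rise towards the 3′ end was smallest in pob3D, which stood at -0.109 in part 9 and -0.059 in part 10, against 0.022 ± 0.059 and 0.045 ± 0.025 in WT (SD, n = 3). Of these 56 genes, 39 had a WT end above the middle, against 30 of the 72 genes with a shorter coding span. In the 34 long genes whose coding span was under 2 kb the end minus middle was below 0 on every array, at -0.013, -0.211 and -0.160 in amo1D, rix1E414K and pob3D and -0.204, -0.024 and -0.110 in WT. In each of these 34 genes more than 1 kb lies outside the coding span.

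Longer genes had lower levels. In the 23 genes of 5 kb or more the middle averaged -0.153 ± 0.067 in WT (SD, n = 3), against 0.021 in genes of 3 to 4 kb, and their end minus middle was 0.248 in amo1D, 0.125 in rix1E414K and 0.065 in pob3D, against 0.131, 0.247 and 0.136 in WT. Across the 128 genes, the gene body (the mean of the 10 parts) correlated with log length at a Pearson r of -0.30 to -0.25 on the 6 arrays. The middle correlated with the log coding span at an r of -0.33 to -0.26. These are descriptions over genes of the same arrays. The 57 members with introns had a mean WT gene body of -0.029 ± 0.026, against 0.053 ± 0.052 in the 71 without (SD, n = 3). The medians over these genes lay closer together, at -0.0485 and -0.0141.

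**Figure D2:**
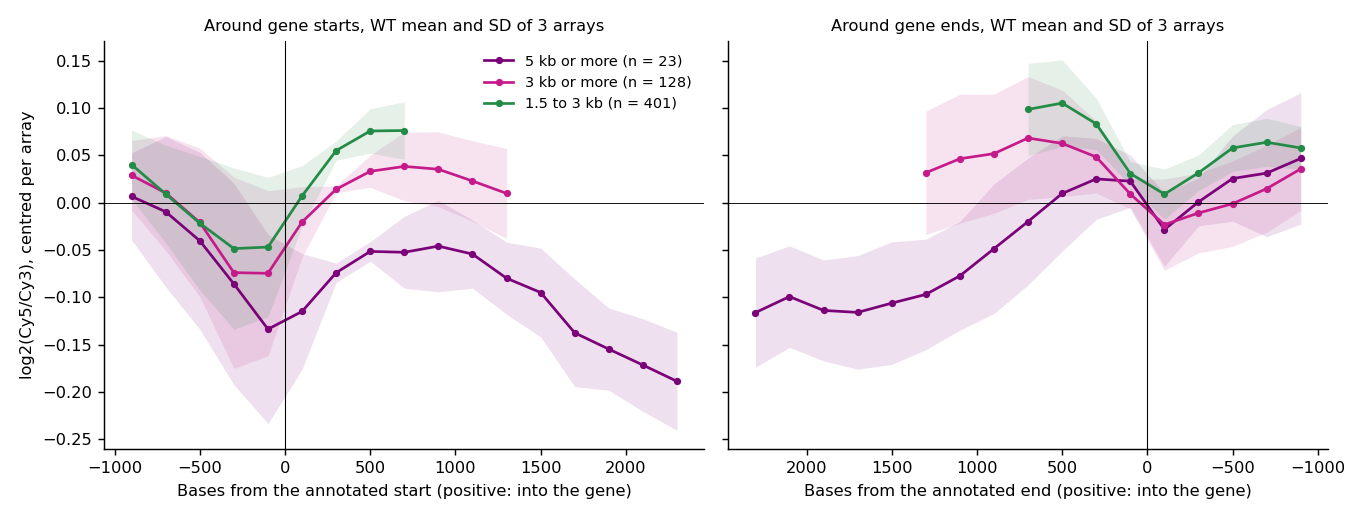
Mean log2 Cy5 over Cy3 against the distance in bases from the annotated gene start (left) and gene end (right), in windows of 200 bases, as the WT mean over 3 arrays with the SD between them as a band, for genes of 5 kb or more, all long genes and shorter genes. The line of the genes of 5 kb or more falls between 800 and 2399 bases into the gene.

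Distance from the ends gave the same picture without stretching genes to one length. In the 200 bases upstream of the start the long genes averaged -0.075 ± 0.087 in WT (SD, n = 3), and 600 to 799 bases into the gene they averaged 0.038. Genes of 5 kb or more were at -0.134 upstream, at -0.046 from 800 to 999 bases inside and at -0.189 from 2200 to 2399 bases inside. From the 3′ end, the same genes were at 0.025 from 200 to 399 bases inside and at -0.116 from 1600 to 1799 bases inside. Shorter genes reached 0.076 at 600 to 799 bases from the start and 0.105 at 400 to 599 bases from the end. The mean level inside the gene differed with the class of neighbour. The 73 long genes with a divergent upstream neighbour averaged 0.071 at 600 to 799 bases into the gene in WT, against -0.0048 in the 55 with a tandem one. At 600 to 799 bases from the 3′ end, the 73 with a convergent downstream neighbour averaged 0.021. The 55 with a tandem one averaged 0.13. These downstream classes differed near the start as well, at 0.0060 and 0.081 from 600 to 799 bases into the gene. In the 200 bases upstream of the start, the divergent class averaged -0.076 and the tandem upstream class -0.073. The median WT gene body was -0.0176 in the convergent and -0.0186 in the tandem downstream class. A link between a neighbour and the nearer end was not tested.

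The 2 channels show what the ratio is made of. Over the long genes the WT mean of log2 Cy5, relative to the array median, was -0.283 in part 1, 0.446 in part 6 and -0.322 in part 10. The Cy3 signal of the input moved nearly as much, at -0.277, 0.458 and -0.346. The GC content of the parts was 36.2% in part 1, 38.6% in part 5 and 33.8% in part 10, so the last part was the poorest in G and C. In the shorter genes part 10 was poorer still, at 30.5%. With the GC correction, long minus shorter in the WT end minus middle was 0.063, against 0.094 without it. Differences in the ratio were thus small beside the differences that both channels share, and the part of base composition in single genes was not tested beyond a correction for GC, under which the mean WT end minus middle of the long genes moved by less than the spread between WT arrays.

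Gene by gene, the shapes were alike between WT arrays. The pairs of WT arrays correlated over the 128 genes at an r of 0.808 to 0.874 for the start minus middle and 0.781 to 0.877 for the end minus middle, and mutant arrays correlated with WT arrays at 0.656 to 0.877 and 0.717 to 0.927. With limma's moderated test of the WT mean against 0 and Benjamini-Hochberg adjustment over all 529 genes, at an adjusted p under 0.05, the start was above the middle in 28 long genes (21.9%, against 12.3% of all genes fitted) and below it in 25 (19.5%, against 28.5%). The end was above the middle in 44 (34.4%, against 20.0%) and below it in 28 (21.9%, against 27.4%). The start was above the end in 30 (23.4%, against 21.6%) and below it in 33 (25.8%, against 25.9%), near the share of all genes. The median WT end minus middle was 0.055 in the long genes and -0.026 in all genes fitted, and the median start minus middle 0.028 and -0.060. In this fit the residual spread was pooled to 1 value for all genes, giving a standard error of 0.0805 for the start and 0.0778 for the end. The counts depended on single WT arrays. Without WT replicate 2, 17 genes had a high end and 15 a high start, and without WT replicate 1, 17 had a low end and 12 a low start. The start was above the end in 17 genes without WT replicate 1 and in 15 without WT replicate 2, and below it in 20 and 16.

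Combining both tests, 18 genes were high at both ends, 12 were low at both ends, 1 (spc24) was high at the start and low at the end, and 2 (alp4 and pyr1) were low at the start and high at the end. A further 20 were called at the start only, 39 at the end only and 36 at neither. Both tests subtract the same middle, which alone makes calls at the start and the end tend to agree. These groups were not counted among the shorter genes, so they cannot be read as a trait of long genes. The highest of the 10 parts in the WT mean was part 10 in 24 genes and part 2 in 20, and the lowest was part 10 in 24 genes and part 1 in 23. Genes called with a high end had a median coding span of 3156 bases and a median 3′ UTR of 317.5 bases. Those with a low end had a median coding span of 1690 bases and a median 3′ UTR of 1639 bases, and 16 of these 28 overlapped another coding gene by 500 bases or more, against 12 of the 44 with a high end.

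**Figure D3:**
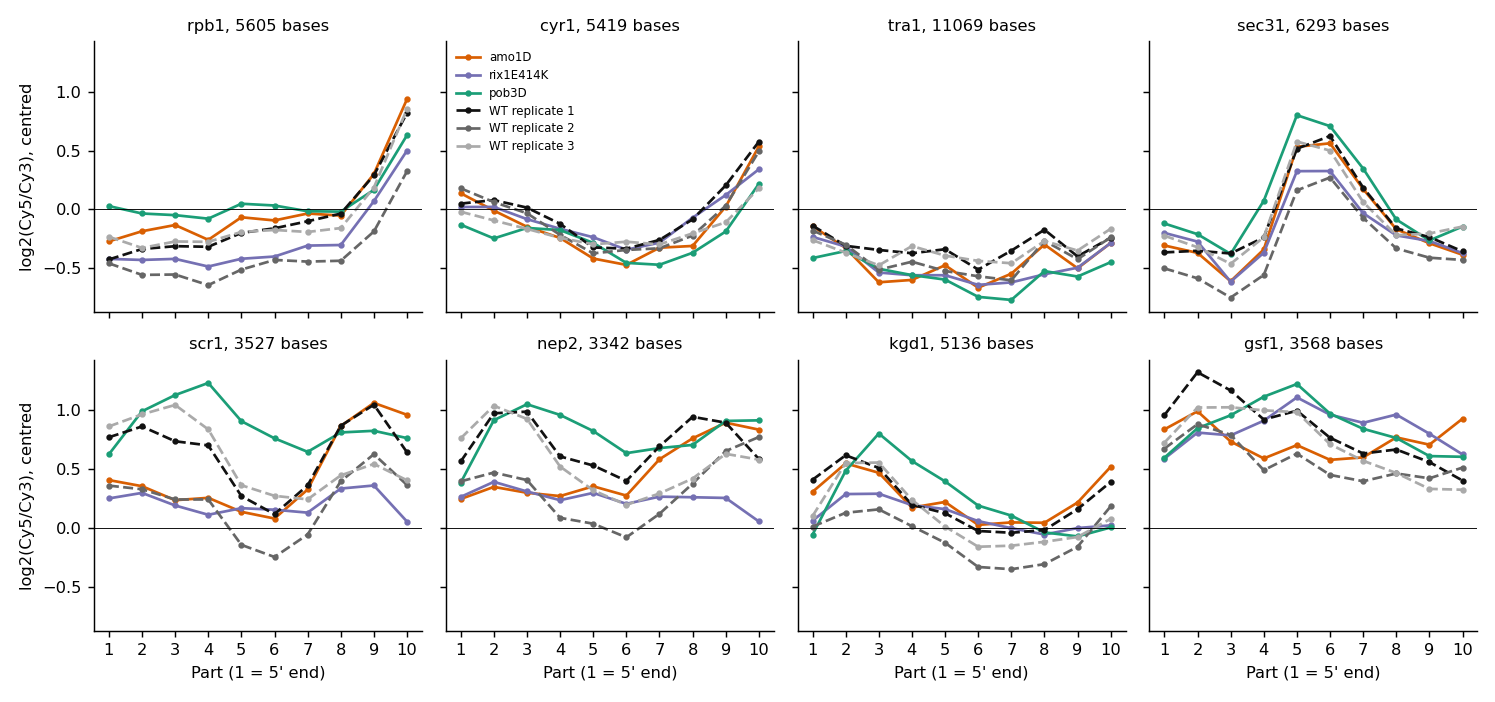
Centred log2 Cy5 over Cy3 (vertical) in 10 parts from the 5′ to the 3′ end (horizontal) of 8 long genes named in the text, with a solid line for each mutant array and a dashed line for each of the 3 WT arrays. The rise of rpb1 and cyr1 at the 3′ end and the central peak of sec31 recur on all 6 arrays, and in scr1 the pob3D line lies above all WT lines from part 2 to part 7.

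**Figure D4:**
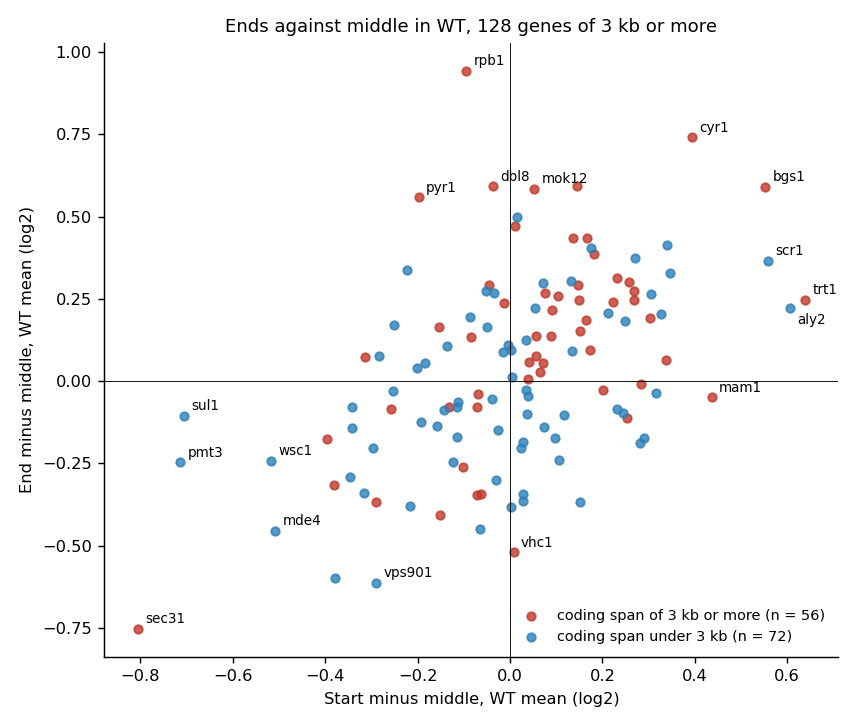
Start minus middle (horizontal) against end minus middle (vertical) of the 128 long genes, as WT means over 3 arrays on the log2 scale, coloured by whether the coding span is 3 kb or more (56 genes) or shorter (72 genes). The gene rpb1 is highest and sec31 lowest on the vertical axis. Both axes subtract the same middle, which alone spreads points along the diagonal.

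The steepest rise at the 3′ end was in a gene of the transcription machinery. The gene rpb1 (chrII:1591140-1596744, + strand), which encodes the largest subunit of RNA polymerase II, had an end minus middle of 1.02 in amo1D, 0.91 in rix1E414K and 0.59 in pob3D, against 1.00, 0.79 and 1.04 in WT. All 6 arrays were far above 0, and the WT mean of 0.94 was the highest of the long genes (limma adjusted p = 4.62e-29). Its WT level was -0.37 in part 1, -0.26 in part 6, 0.10 in part 9 and 0.67 in part 10, so the rise lay in parts 9 and 10 of a gene that was low elsewhere. Of the 16 genes in the transcription and chromatin class, 6 had a high end, 1 a low end, 2 a high start and 2 a low start, and the share with a high end was near the 34.4% of all long genes. Among them lid2, a histone demethylase subunit, had an end minus middle of -0.03 in pob3D, against 0.46, 0.56 and 0.39 in WT. This difference did not pass the test against WT described further on. The longest of the class, tra1 (chrII:1894350-1905418, − strand), was low all along, with gene body values of -0.45 in amo1D, -0.48 in rix1E414K and -0.55 in pob3D, against -0.32, -0.41 and -0.35 in WT. It was high at both ends relative to a WT middle of -0.51 in part 6.

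Some signalling and cell wall genes were also among those with high ends. Of the 9 kinase or phosphatase genes 3 had a high end and 2 a low one, with the share of high ends near that of all long genes. The cell wall class held 2 genes, bgs1 and mok12, each with a high end. The cell wall stress sensor gene wsc1 was low at both ends. The gene cyr1 (chrII:2819802-2825220, + strand), which encodes adenylate cyclase, the enzyme that makes cAMP in response to glucose, had an end minus middle of 0.98 in amo1D, 0.63 in rix1E414K and 0.59 in pob3D, against 0.91, 0.85 and 0.47 in WT. Its start was high too, with a WT mean of 0.39 above the middle. The gene bgs1 (chrII:2350922-2357364, − strand) encodes a glucan synthase that builds the septum. Its end minus middle was 0.62, 0.50 and 0.66 in amo1D, rix1E414K and pob3D and 0.61, 0.63 and 0.53 in WT, and its start minus middle 0.28, 0.31 and 0.34 in the mutants and 0.52, 0.49 and 0.64 in WT. Both ends of bgs1 were thus above its middle on every array. The spore wall glucan synthase gene mok12 rose at the end only, by a WT mean of 0.58. Other genes with a high end were ste20, a subunit of TOR complex 2 (0.59), dbl8, an RNA helicase (0.59), ppr3, a PPR repeat protein (0.50), and cdc6, the catalytic subunit of DNA polymerase delta (0.44). Of the 7 genes of replication, repair, cohesin or condensin 3 had a high end and 0 a low one, against 34.4% and 21.9% of all long genes.

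The highest starts belonged to trt1, aly2 and scr1. The gene trt1, which encodes the catalytic subunit of telomerase, had a start minus middle of 0.99 in amo1D, 0.63 in rix1E414K and 0.35 in pob3D, against 0.78, 0.69 and 0.45 in WT. The gene aly2, an arrestin-like gene whose upstream bases are printed above, had 1.04, 0.10 and 0.35 in the mutants and 0.86, 0.63 and 0.33 in WT. The spread of aly2 between WT arrays, 0.27 (SD, n = 3), was a large share of its mean of 0.61. The gene mam1, which encodes the exporter of the M-factor mating pheromone, was steadier, at 0.50, 0.44 and 0.32 in amo1D, rix1E414K and pob3D and 0.49, 0.42 and 0.41 in WT. It was also among the 5 genes with the most new H3 at the start relative to the end, with vhc1 (a vacuolar cation-chloride cotransporter, WT mean 0.53), SPBC18A7.02C (a receptor-like membrane protein, 0.52), spc24 (a kinetochore protein, 0.47) and ccc2 (a copper transporter, 0.46). In the opposite direction, after rpb1 (-1.04), came pyr1 (pyruvate carboxylase, -0.76), dbl8 (-0.63), sul1 (a sulfate transporter, -0.60) and alp4 (a gamma-tubulin complex subunit, -0.56).

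Several genes with long 3′ UTRs had low ends around a high middle. The gene sec31 (chrII:1393345-1399637, − strand), which encodes a coat protein of COPII vesicles, had a start minus middle of -0.85 in amo1D, -0.53 in rix1E414K and -0.87 in pob3D, against -0.94, -0.72 and -0.76 in WT. Its end minus middle was -0.93, -0.70 and -0.90 in the mutants and -0.93, -0.65 and -0.68 in WT. It was the lowest of the long genes in both measures, and its WT profile held a peak of 0.42 in part 5 and 0.47 in part 6 between values of -0.53 in part 3 and -0.24 in part 8. The annotated coding span of sec31 is 3675 of 6293 bases and its 3′ UTR 2489. The gene pmt3, which encodes the SUMO protein, had a start minus middle of -0.75, -0.66 and -0.74 in amo1D, rix1E414K and pob3D and -0.91, -0.63 and -0.60 in WT, with a coding span of 497 bases in a gene of 3416. Others low at both ends included wsc1, a sensor of cell wall stress (start -0.52), mde4, a kinetochore clamp protein (start -0.51, end -0.45), and vps901, an exchange factor of vesicle sorting (end -0.61). Of the 4 vesicle traffic genes 2 had a low start and 1 a low end, against 19.5% and 21.9% of all long genes, and 0 had a high one.

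The level over the whole gene also varied between genes. The WT gene body was highest in map4, which encodes a mating agglutinin (0.72 ± 0.02, SD, n = 3), gsf1 (0.71 ± 0.13), the retrotransposons Tf2-9 and Tf2-10 (0.59 each) and nep2, a protease for the ubiquitin-like protein NEDD8 (0.54). The 2 retrotransposons share probes with other copies, so their values cannot be assigned to 1 copy. The lowest were the nuclear transport receptor genes kap109 (-0.38) and mtr10 (-0.27), tra1 (-0.36 ± 0.04), the helicase gene dhx29 (-0.28) and sip1 (-0.25). The 3 nuclear pore and transport genes had a median of -0.27, against -0.018 over all long genes and 0.030 over all genes fitted. The genes whose 10-part WT profile was most like the mean profile were vts1 (r = 0.92), cut14 (0.89) and kin1 (0.88), and the least like it were ppk29 (-0.79), alg2 (-0.79) and SPBC9B6.11C (-0.72). The median r was 0.21 over the 128 genes.

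No long gene passed the test for a difference from WT over the gene body. With limma's moderated test and Benjamini-Hochberg adjustment, 0 of the 128 long genes passed an adjusted p of 0.05 in amo1D (0.189% of all genes fitted), rix1E414K (0%) or pob3D (0%), and the smallest adjusted p of a long gene was 0.781 for amo1D, 0.642 for rix1E414K and 0.224 for pob3D. The gene called in amo1D is amo1 itself, a shorter gene deleted in that strain. At an unadjusted limma p under 0.05, 9 long genes were lower (7.03%, against 3.78% of all genes fitted) and 0 higher (0%, against 1.13%) in amo1D, 1 lower (0.781%, against 1.51%) and 7 higher (5.47%, against 5.10%) in rix1E414K, and 16 lower (12.5%, against 12.1%) and 2 higher (1.56%, against 4.73%) in pob3D. The mean difference from WT over the long genes was -0.036 in amo1D, 0.025 in rix1E414K and -0.022 in pob3D, against an SD between WT arrays of 0.040. Single genes differed by -0.27 to 0.20 in amo1D, -0.30 to 0.33 in rix1E414K and -0.44 to 0.39 in pob3D. The amo1D value lay below all 3 WT arrays in 55 long genes (43.0%, against 35.5% of all genes fitted) and above them in 16 (12.5%, against 16.8%). For rix1E414K 46 lay above (35.9%, against 37.8%) and 18 below (14.1%, against 20.0%), and for pob3D 37 lay above (28.9%, against 25.5%) and 55 below (43.0%, against 42.3%). These shares were near those of all genes. Against the WT array of the same slide, amo1D differed by a mean of -0.082, rix1E414K by 0.058 and pob3D by -0.010.

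Large differences in the gene body, none of which passed the test, were in genes of several kinds. In amo1D, rpb1 and rpc1, which encode the largest subunits of RNA polymerases II and III, had a difference of 0.20 each and mpr1 0.19, while the protein kinase gene ppk31 had -0.27, wdr7 -0.26 and the eIF2 kinase gene gcn2 -0.21. In rix1E414K mot1, which encodes a remover of TATA-binding protein, had 0.27 and ubc1, a ubiquitin-conjugating enzyme gene, 0.25, while wsc1 had -0.30 and nep2 and scr1 -0.28 each. In pob3D scr1 had 0.39, atf1 0.33 and wsc1 0.31, while sfc3, which encodes a subunit of the RNA polymerase III factor TFIIIC, had -0.44, gcn2 -0.28 and dbl8 -0.25. All 3 comparisons share the same WT arrays.

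In the shape, 7 long genes differed from WT, with 11 calls among them. In the start minus middle 0 long genes passed in amo1D (0% of all genes fitted), 1 in rix1E414K (0.756%) and 3 in pob3D (0.567%). In amo1D, 4 starts were higher (3.12%, against 4.54% of all genes fitted) and 1 lower (0.781%, against 1.13%) at an unadjusted limma p under 0.05. In the end minus middle 1 passed in amo1D (0.189%), 2 in rix1E414K (0.378%) and 1 in pob3D (0.756%). In the start minus end 2 passed in amo1D (0.567%), 0 in rix1E414K (0%) and 1 in pob3D (0.945%). At an unadjusted limma p under 0.05, the start minus end was higher in 2 long genes (1.56%, against 1.89% of all genes fitted) and lower in 4 (3.12%, against 1.32%) in rix1E414K. With 1 array a mutant, these calls assume that the mutant array varies like the WT arrays. In each shape measure the spread was also pooled to 1 value for all genes. The standard error of a difference was 0.161 at the start, 0.156 at the end and 0.183 for the start minus end. A gene whose own WT arrays spread more widely was thus not tested against that wider spread. Without WT replicate 1, 1 long gene passed in the start minus end in amo1D and 0 in the other 8 comparisons. Without WT replicate 2, 1 passed at the start in amo1D and 1 in pob3D, and 0 in the others. Without WT replicate 3 the start counts were 0 in amo1D, 2 in rix1E414K and 1 in pob3D, with end counts of 0, 4 and 4 and start minus end counts of 1, 0 and 1.

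The gene scr1 (chrII:1752093-1755619, + strand) encodes a repressor that acts when glucose is present, and its start stood below its middle in pob3D alone. Its start minus middle was 0.30 in amo1D, 0.09 in rix1E414K and -0.21 in pob3D, against 0.58, 0.56 and 0.54 in WT. The pob3D difference of -0.77 passed (limma adjusted p = 0.00109). The pob3D array was within the range of the WT arrays in part 1 and above all of them in parts 5 and 6: these parts stood at 0.63, 0.91 and 0.76 in pob3D, against 0.77, 0.27 and 0.12 in WT replicate 1, 0.36, -0.14 and -0.25 in WT replicate 2 and 0.86, 0.36 and 0.27 in WT replicate 3.

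The gene nep2 (chrII:1451331-1454672, − strand) passed in both pob3D and rix1E414K. Its start minus middle was -0.07 in amo1D, 0.01 in rix1E414K and -0.35 in pob3D, against 0.10, 0.42 and 0.50 in WT, a pob3D difference of -0.69 (limma adjusted p = 0.00579). Its end minus middle was 0.52 in amo1D, -0.20 in rix1E414K and 0.18 in pob3D, against 0.12, 0.79 and 0.32 in WT, a rix1E414K difference of -0.61 (limma adjusted p = 0.0251). The WT arrays themselves spread widely here, and pob3D and rix1E414K lay below all of them in the measure that passed.

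The gene kgd1 (chrII:1879064-1884199, + strand), which encodes a subunit of the ketoglutarate dehydrogenase of the citric acid cycle, passed at both ends in pob3D. Its start minus middle was 0.18 in amo1D, -0.05 in rix1E414K and -0.35 in pob3D, against 0.36, 0.24 and 0.17 in WT (difference -0.61, limma adjusted p = 0.0288). Its end minus middle was 0.40 in amo1D, -0.09 in rix1E414K and -0.29 in pob3D, against 0.34, 0.41 and 0.15 in WT (difference -0.59, limma adjusted p = 0.0266). The middle of kgd1 in pob3D was 0.40 in part 5 and 0.19 in part 6, against 0.12 and -0.03, -0.13 and -0.33, and 0.01 and -0.16 in WT replicates 1 to 3.

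In rix1E414K, sul1 (chrII:1884123-1887703, − strand) had an end minus middle of -0.88, against 0.06 in amo1D, -0.18 in pob3D and -0.15, 0.09 and -0.25 in WT (difference -0.77, limma adjusted p = 0.000399). The stress transcription factor gene atf1 (chrII:1546217-1549862, + strand) had a start minus middle of -0.98 in rix1E414K, against -0.54 in amo1D, -0.80 in pob3D and -0.31, -0.12 and -0.60 in WT (difference -0.64, limma adjusted p = 0.0192). In amo1D, gsf1 (chrII:3011512-3015079, + strand) had an end minus middle of 0.29, against -0.41 in rix1E414K, -0.49 in pob3D and -0.48, -0.03 and -0.52 in WT (difference 0.63, limma adjusted p = 0.0285). In each of these genes the array named stood outside the range of the other 5. The genes kgd1 and sul1 are convergent neighbours that overlap at their 3′ ends.

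Between the 2 ends, atf1 and scr1 passed in amo1D and top2 in pob3D. The start minus end of atf1 was -0.98 in amo1D, -0.43 in rix1E414K and -0.41 in pob3D, against -0.13, -0.27 and -0.39 in WT (difference -0.72, limma adjusted p = 0.0173). That of scr1 was -0.56 in amo1D, 0.20 in rix1E414K and -0.14 in pob3D, against 0.13, -0.01 and 0.46 in WT (difference -0.75, limma adjusted p = 0.0128). In both genes the amo1D value was the lowest of the 6 arrays. The start of atf1 lay below its end on all 6, while that of scr1 lay above its end in rix1E414K and in WT replicates 1 and 3. The gene top2 (chrII:1976161-1981267, − strand), which encodes DNA topoisomerase II, had a start minus end of 0.02 in amo1D, 0.0046 in rix1E414K and 0.51 in pob3D, against -0.43, -0.12 and 0.09 in WT (difference 0.67, limma adjusted p = 0.0367). The pob3D array was the highest of the 6, and neither end alone passed against the middle in pob3D. Each of these 3 calls was lost without WT replicate 2: the adjusted p was then 0.370 for atf1, 0.228 for scr1 and 0.746 for top2. Without WT replicate 1 atf1 (0.0945) and top2 (0.606) did not pass, and without WT replicate 3 scr1 (0.0584) did not.

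Other differences in the start minus middle did not pass: map4 had 0.56 and aly2 0.43 in amo1D, sec31 had 0.28 and aly2 -0.51 in rix1E414K, and srr1 had 0.42 and res1 0.37 in pob3D.

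Of these 7 genes, 6 have an annotated 5′ UTR of 705 to 1675 bases, as have 14 of the 128 long genes, and that of top2 is 501 bases. This was noticed after the values were seen and was not tested. In such a gene part 1 lies in the 5′ UTR and the middle reaches the coding sequence. With the 10 parts laid over the coding span, the differences of kgd1 and scr1 at the start in pob3D and of atf1 in rix1E414K changed sign, to 0.10, 0.33 and 0.17. The call of scr1 was kept under 15 of 17 alternatives, that of kgd1 at the end under 13 of 18, and that of gsf1 under 10 of 17. In the start minus end, the call of atf1 was kept under 10 of 17, that of scr1 under 8 of 17 and that of top2 under 10 of 19.

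Over all long genes, the mutants differed from WT by about the spread between WT arrays at the start, and by more than it at the end. The mean difference from WT in the start minus middle was 0.055 in amo1D, -0.083 in rix1E414K and -0.043 in pob3D, against an SD between WT arrays of 0.075. In the end minus middle it was 0.084, -0.091 and -0.063, against 0.056. There amo1D lay above the range of the WT arrays, and rix1E414K and pob3D lay below it. With 1 array a mutant this has no replicate check. Against the WT array of the same slide, the difference was 0.130 at the start and 0.131 at the end for amo1D, -0.158 and -0.153 for rix1E414K, and -0.043 and -0.047 for pob3D, so that for amo1D and rix1E414K it was larger within the slide. In the start minus end the mean difference was -0.029 for amo1D, 0.0083 for rix1E414K and 0.020 for pob3D. The end minus middle lay above all WT arrays in 52 long genes in amo1D (40.6%, against 39.1% of all genes fitted) and below them in 14 (10.9%, against 11.0%). It lay above them in 13 in rix1E414K (10.2%, against 7.18%) and below them in 48 (37.5%, against 41.6%). In pob3D the shares differed from those of all genes: 22 long genes lay above all WT arrays (17.2%, against 41.0%) and 48 below (37.5%, against 17.2%). The median pob3D difference was -0.044 in the long genes and 0.072 over all genes fitted. The mean was -0.063 in the long genes and 0.114 in the shorter genes, or -0.047 and 0.095 within the slide. The shorter genes thus moved further from WT than the long genes, and in the opposite direction. In the mean profile the pob3D difference from WT was 0.026 in part 5, -0.087 in part 9 and -0.045 in part 10, against an SD between WT arrays of 0.055, 0.058 and 0.017.

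**Figure D5:**
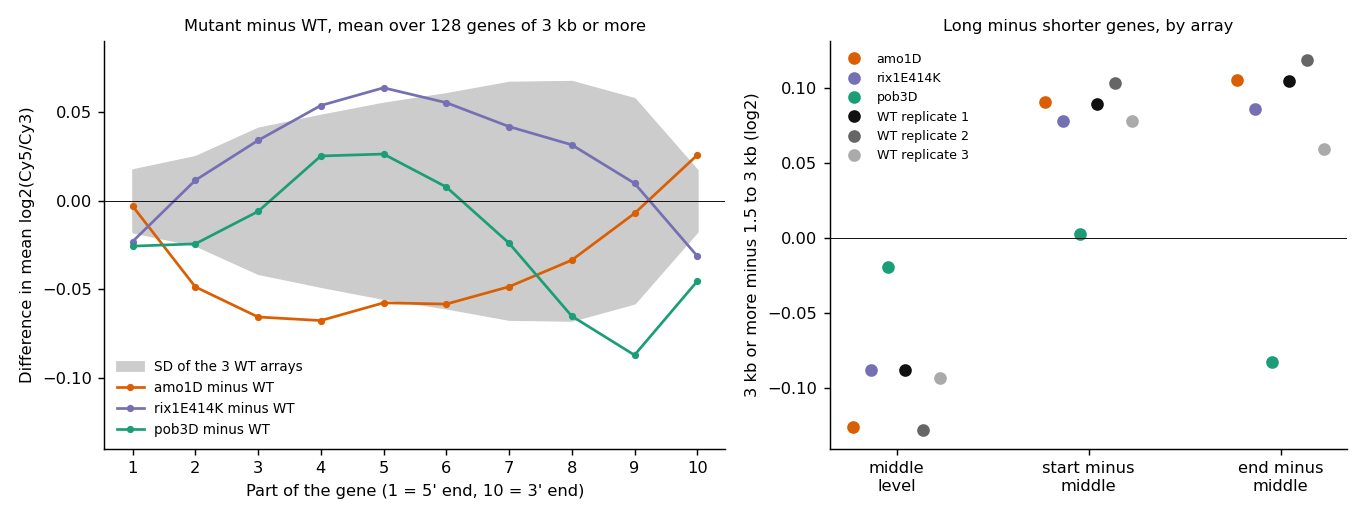
Left, mean difference of amo1D, rix1E414K and pob3D from the WT mean (log2) in 10 parts over the 128 long genes, with the SD between the 3 WT arrays in grey. Right, the mean of the long genes minus that of the shorter genes (log2) on each of the 6 arrays, for the middle level and for start and end minus middle; the pob3D array lies at -0.083 in the end minus middle and the other 5 arrays between 0.059 and 0.119.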

How the data were processed

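Newly made FLAG-tagged H3 was measured on 6 Agilent 2-colour tiling arrays: 1 each of amo1D, rix1E414K and pob3D and 3 of WT. Per the file headers, the authors quantified them with Agilent Feature Extraction 12.0.3.1, whose background step was detrended and whose dye normalization was linear, and the deposited scanner files hold the processed signals as intensity values. In the deposited series table each value is a linear ratio, which matched the processed Cy5 divided by Cy3 within a relative error of 9.05e-09. This scaling and the centring remove any shift common to all probes.

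For each of 43993 probes, log2 of processed Cy5 over Cy3 was taken and centred on the array median. Control spots and outlier spots were left out. Each probe covers 60 bases and starts 50 bases after the one before. The array's numbering runs ahead of the reference by 900 bases left of the centromere and by 1800 right of it. Signal and GC content set against each other placed 20 of 20 windows within 15 bases of these shifts. All coordinates and sequences are those of ASM294v3 (RefSeq). Depth has no meaning for arrays, whose number limits the precision.

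The start minus middle, end minus middle, start minus end and gene body of 529 genes were tested with limma (version 3.58.1, R 4.3.3) in a model with a coefficient for each genotype, and adjusted p-values (Benjamini-Hochberg) were called at 0.05. Its 2 residual degrees of freedom come from WT, and the fit was tested on simulated data. Tables were made with Python 3.11.15, numpy 2.4.6 and pandas 2.3.3. The members, functional classes and lists were chosen with earlier results of these data known.

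The genes named are the 5 highest and 5 lowest in the start minus end and in the gene body, the extremes of each mutant's difference, those past the threshold (at most 10 per direction and comparison), the 3 longest, those next to the length limit, the longest of each functional class, and the 3 most and 3 least like the mean profile. One gene that this rule names is not reported here. Alternatives changed background correction, scaling, loess, spot filters, GC correction, the summary, the gene parts, the length limit, overlaps and the WT arrays. The normexp and no-subtraction settings used median signals, in place of the mean signals that had been planned. Members with a coding span of 3 kb or more, and parts of the coding span, were added after seeing the data, as was the comparison of the start minus end of each mutant with WT.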

Additional observations from a re-analysis of the deposited data

How the results depend on the processing

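The direction of the long-minus-shorter differences held in WT under every alternative run. In the middle (-0.10), normexp gave -0.17. In the start minus middle (0.090), the GC correction gave 0.076, 500-base windows 0.070, normexp 0.14 and parts of the coding span 0.069. In the end minus middle (0.094), normexp gave 0.17, leaving out overlapped parts 0.16 and the GC correction 0.063, the lowest of the settings. The pob3D difference from WT in it (-0.18) was -0.14 with 500-base windows, -0.22 with normexp, -0.14 with parts of the coding span and -0.25 without overlapped parts. Leaving out each WT array in turn gave -0.11 to -0.091, 0.084 to 0.096, 0.082 to 0.11 and -0.19 to -0.16 for these 4 values. Over the long genes, the mean WT start minus middle (0.0093) was 0.11 with loess and 0.086 with normexp, and -0.028 to 0.047 without one WT array. The end minus middle (0.039) was 0.13 in members with a coding span of 3 kb or more, 0.11 in genes of 4 kb or more, 0.14 with loess, 0.13 with normexp, 0.11 with parts of the coding span and 0.11 without overlapped parts. It was 0.0081 to 0.063 without one WT array. The start minus end (-0.030) was -0.076 in members with a long coding span, -0.065 at 4 kb, -0.076 with parts of the coding span and -0.072 without overlapped parts, and -0.038 to -0.016 without one WT array.

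Counts of WT calls moved with the set and the setting. In members with a long coding span, high and low calls numbered 14 and 7 at the start, 26 and 8 at the end and 10 and 15 for start against end. At 4 kb they numbered 11 and 7, 23 and 8, and 10 and 13. At 2.5 kb the low calls numbered 49 at the start and 49 at the end, and start against end had 49 high and 53 low. Loess gave 49 high and 9 low at the start and 14 low at the end, normexp gave 14 low at the start, parts of the coding span gave 14 low at the start, 15 low at the end and 15 high for start against end, and leaving out overlapped parts gave 26 high and 10 low at the end and 11 high and 18 low for start against end. Without one WT array the start had 15 to 26 high and 12 to 22 low, the end 17 to 41 high and 17 to 25 low, and start against end 15 to 27 high and 16 to 30 low. Of 53 start calls, 22 were kept without each WT array in turn, and of 72 end calls, 30.

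Mutant calls were fragile. At the start, amo1D (0 calls) had 1 with the GC correction and 1 with 500-base windows, and 0 to 1 without one WT array. At the start, rix1E414K (1 call) had 0 with MAD scaling, a long coding span, 4 kb, loess and parts of the coding span, 4 with 500-base windows, 4 at 2.5 kb, 2 with normexp and 0 to 2 without one WT array. At the start, pob3D (3 calls) had 5 with the GC correction, 1 with a long coding span, 1 at 4 kb, 1 with loess, 0 with parts of the coding span and 0 to 1 without one WT array. At the end, amo1D (1 call) had 2 with loess and 0 with the GC correction, a long coding span, 500-base windows, 4 kb, normexp, parts of the coding span and without any one WT array. At the end, rix1E414K (2 calls) had 1 with the GC correction, the median of probes and normexp, 5 with loess, 0 with a long coding span, 500-base windows, 4 kb, parts of the coding span and overlapped parts left out, and 0 to 4 without one WT array. At the end, pob3D (1 call) had 5 with loess, 0 with 500-base windows, normexp, parts of the coding span and overlapped parts left out, and 0 to 4 without one WT array. For the start minus end, amo1D (2 calls) had 1 with loess and normexp, 0 with MAD scaling, a long coding span, 500-base windows, 4 kb, the median of probes, no background subtraction and parts of the coding span, and 0 to 1 without one WT array. For the start minus end, pob3D (1 call) had 2 at 2.5 kb, 0 with the GC correction, MAD scaling, 500-base windows, loess, the median of probes, no background subtraction and parts of the coding span, and 0 to 1 without one WT array, and rix1E414K (0 calls) had 1 with parts of the coding span. Parts of the coding span turned the start difference of kgd1 (0.10) and scr1 (0.33) in pob3D and of atf1 in rix1E414K (0.17). The cause was not tested. The pob3D mean at the end (-0.063) was -0.12 without overlapped parts. The mean start minus end difference of amo1D (-0.029) was -0.0040 in members with a long coding span, -0.055 without overlapped parts and -0.0006 within the slide, and -0.043 to -0.021 without one WT array. That of pob3D (0.020) was 0.059 in members with a long coding span, -0.0056 at 2.5 kb, 0.058 at 4 kb, 0.045 with normexp and 0.087 with parts of the coding span, and 0.0057 to 0.028 without one WT array. That of rix1E414K (0.0083) was -0.0058 to 0.016 without one WT array. Within the slide the mean gene body difference of amo1D was -0.082, its start difference 0.13 and its end difference 0.13, and the end difference of rix1E414K was -0.15 and its start difference -0.16.

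Slide as a random block could not be fitted, because the residuals compare WT arrays that lie on different slides. No paired analysis was possible because each mutant has 1 array, which leaves no residual degree of freedom beside a block. Without one WT array, the mean gene body difference was -0.053 to -0.014 in amo1D, 0.0084 to 0.047 in rix1E414K and -0.038 to 0.0008 in pob3D.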
